A study of Homo sapiens with 12 samples.

Results

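The genes described here are 10 components of the extrinsic apoptosis pathway, chosen by name from the 58037 genes of the count table. They comprise 4 receptors that carry an intracellular death domain (*TNFRSF10A*, *TNFRSF10B*, *FAS* and *TNFRSF1A*), the decoy receptors *TNFRSF10C* and *TNFRSF10D*, the adaptor *FADD*, the initiator caspases *CASP8* and *CASP10*, and the caspase-like inhibitor *CFLAR*. All 10 were found in the table. PolyA-selected RNA was sequenced from wild-type HCT116 cells, an epithelial line from a human colorectal carcinoma, exposed for 8 h to DMSO, to 10 μM of Nutlin-3a, to 20 nM of NVP-2 or to Nutlin-3a and NVP-2 at those doses, with 3 samples in each of the 4 conditions. Nutlin-3a stabilizes p53 by keeping it from MDM2, and NVP-2 inhibits CDK9, the kinase of P-TEFb. In the table as analysed here the 12 columns were identical: the number of genes with a count that differed between any columns was 0, and each column summed to 22720718 counts. They were therefore treated as 1 HCT116 profile whose treatment is not known. Every count below is the value found in all 12 columns, no drug effect was computed, and there is no spread between replicates. The intervals that follow are 95% intervals that cover counting error only.

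In the extrinsic pathway, a ligand on or from another cell brings receptors together at the plasma membrane. FAS ligand binds FAS, and TRAIL binds the receptors known as DR4 and DR5, encoded by *TNFRSF10A* and *TNFRSF10B*. Their death domains then recruit FADD, whose death effector domain in turn recruits procaspases 8 and 10, which activate each other on this platform, the death-inducing signaling complex. FLIP, the product of *CFLAR*, joins the same platform through its own death effector domains and limits caspase activation. The TRAIL decoys bind the ligand without a complete death domain, and TNFR1, encoded by *TNFRSF1A*, first assembles a complex through TRADD that drives NF-κB signaling, from which a second complex with FADD and caspase 8 can form. Both *FAS* and *TNFRSF10B* are well-known direct targets of p53.

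*CFLAR* lies beside the caspase genes and encodes a protein of similar length, but without their active site. The bases below show that difference. They are coding sequence of the canonical transcripts in the reference genome hg38, on the plus strand of chromosome 2, and were not read from HCT116. The capitals mark the codon of the catalytic cysteine in *CASP8* and *CASP10* and the codon at the same place in *CFLAR*, which encodes tyrosine. The place in *CFLAR* was set by a run of 4 residues shared with caspase 8 that ends 1 residue before it.
*CASP8*: tttattcaggctTGTcagggggataactac
*CASP10*: ttcatccaggccTGCcaaggtgaagagata
*CFLAR*: tttattcagaacTATgtggtgtcagagggc
The *CASP8* bases are codons around position 360 of 479, in exon 8 of 9 (chr2:201285079-201285108). Those of *CASP10* surround codon 401 of 522, in exon 9 of 10 (chr2:201209336-201209365). Those of *CFLAR* surround codon 360 of 480, also in exon 9 of 10 (chr2:201160704-201160733). Over these 30 bases *CASP8* differed from *CASP10* at 12 and from *CFLAR* at 14. Over the whole aligned proteins, caspase 8 was identical to caspase 10 at 42.4% of 455 residues and to FLIP at 30.0% of 444.

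The mRNA levels of the genes spanned a wide range, with the decoy *TNFRSF10D* at the top and *CASP10* at the bottom. Levels are given as RPKM, the counts per 1000000 counts of the column and per kilobase of exon, which is the scale on which genes of different length can be compared. Since the length of a gene can be set in several ways, RPKM is given over the merged exons of all its annotated transcripts and, in brackets where it matters, over its canonical transcript. *TNFRSF10D* reached 38.6 RPKM over merged exons, *TNFRSF10A* 15.4, *FADD* 13.5, *TNFRSF10B* 13.1 and *TNFRSF1A* 11.2. A gap separated these 5 genes from the rest, since *TNFRSF1A* was 5.97-fold above the next gene, *CASP8* (interval 5.25 to 6.80). *CASP8* had 1.87 RPKM, *TNFRSF10C* 1.28, *CFLAR* 0.803, *FAS* 0.269 and *CASP10* 0.104. Of the 9 pairs of neighbors in this order, 8 differed by more than counting error and 1 did not, *FADD* and *TNFRSF10B*, whose ratio was 1.03 (0.930 to 1.14). Over canonical transcripts the gap narrowed, and the neighbors that did not differ were *TNFRSF10A* and *TNFRSF10B*, and *TNFRSF10C* and *CFLAR*.

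**Figure D1:**
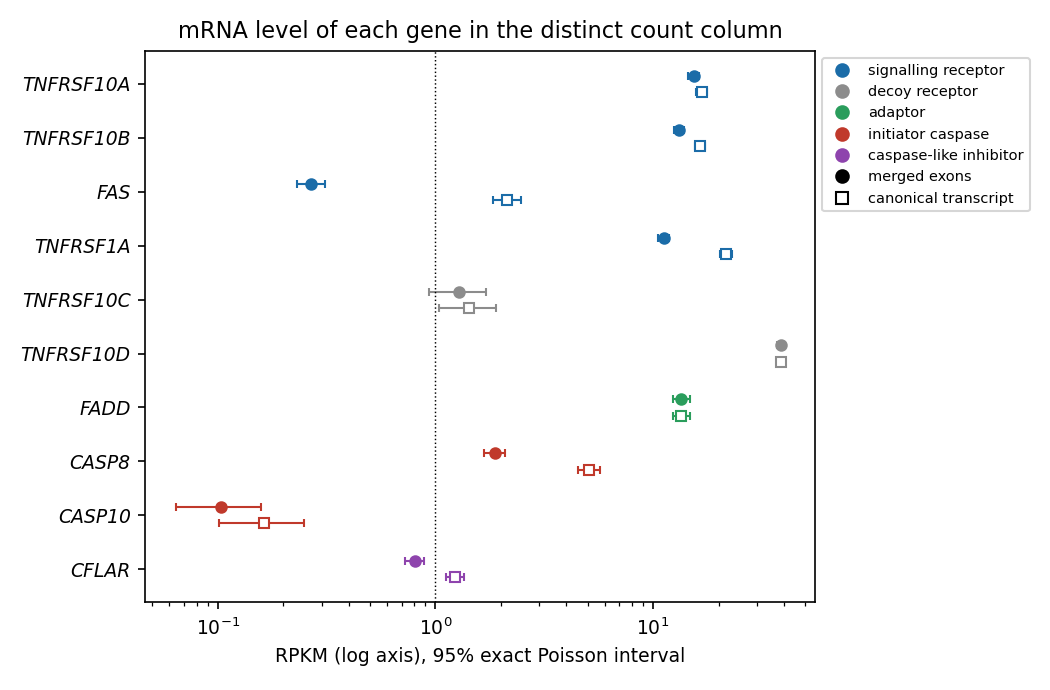
Level of each gene in the distinct count column, in RPKM on a log axis, with 95% exact Poisson intervals. Filled circles use the merged exons and open squares the canonical transcript as the gene length, colors mark the role, and the dotted line is an RPKM of 1. *TNFRSF10D* is highest at 38.6 and *CASP10* lowest at 0.104, and *FAS* moves from 0.269 to 2.13 with the length used.

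An RPKM of at least 1, the threshold for an expressed gene in the methods of the study, was reached by 7 of the 10 genes over merged exons, against 44.6% of the 19629 protein-coding genes. *FAS*, *CASP10* and *CFLAR* were below it. Of the 7, *TNFRSF10C* was not above it beyond counting error, at 1.28 RPKM with an interval that includes 1 (0.935 to 1.72). Over canonical transcripts, 9 of the 10 reached it, against 49.1% of protein-coding genes, and over the merged exons of the basic GENCODE transcripts again 7, against 47.7%. A CPM of at least 1, the same scale without the length, was also reached by 9, against 58.0%. *CASP10* was the gene below the threshold under every one of these 4 rules. The median of the 10 genes was 6.53 RPKM over merged exons and that of protein-coding genes 0.589. As the genes were chosen by name, these shares describe them and were not tested.

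**Figure D2:**
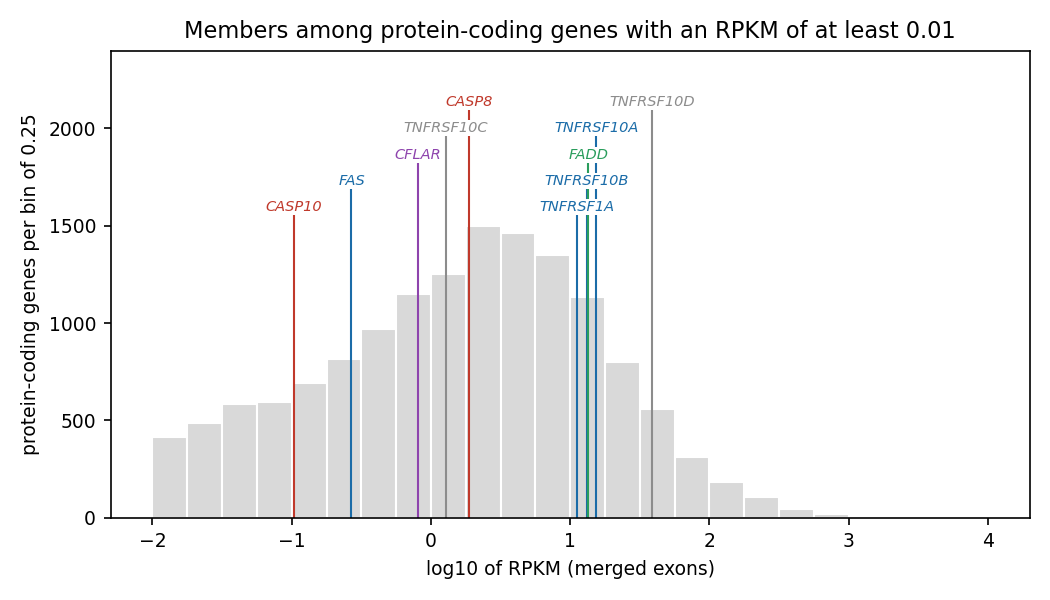
Distribution of protein-coding genes by log10 of RPKM over merged exons, in bins of 0.25, with the 10 genes as vertical lines colored by role. *TNFRSF10D* lies above 94.8% of all 19629 protein-coding genes and *CASP10* above 37.2%, counting also the 4779 genes at 0 counts and the 387 below the lowest bin, which are not drawn.

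Both TRAIL receptors that signal death were among the more abundant mRNAs. *TNFRSF10A* (ENSG00000104689, chromosome 8, 23190452 to 23225102, minus strand) had 1021 counts (959 to 1086), and its level of 15.4 RPKM lay above that of 88.2% of protein-coding genes. *TNFRSF10B* (ENSG00000120889, chromosome 8, 23020133 to 23069031, minus strand) had 1494 counts (1419 to 1572) and 13.1 RPKM, above 86.7%. Which of them is higher depended on the length. The *TNFRSF10B* level was 0.855 of the *TNFRSF10A* level over merged exons (0.789 to 0.927), whereas it was 0.985 over canonical transcripts, with an interval that includes 1 (0.909 to 1.07). The annotated exons of *TNFRSF10B* add up to 5010 bases and those of *TNFRSF10A* to 2927, and the encoded proteins of 440 and 468 residues are identical at 57.9% of 401 aligned positions.

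The decoy receptors, in contrast, stood far apart from each other. *TNFRSF10D* (DcR2; ENSG00000173530, chromosome 8, 23135588 to 23164027, minus strand), whose product spans the membrane but has a truncated death domain, had 3101 counts (2993 to 3212). *TNFRSF10C* (DcR1; ENSG00000173535, chromosome 8, 23102921 to 23117445, plus strand), whose product is held at the surface by a lipid anchor and has no intracellular domain, had 45 counts (32.8 to 60.2). The *TNFRSF10D* level was thus 30.1-fold that of *TNFRSF10C* (22.5 to 41.4), and 27.2-fold over canonical transcripts. *TNFRSF10D* alone made up 56.5% of the summed level of the 4 TRAIL receptors, or 52.8% over canonical transcripts. Taken by function, the summed level of the signaling receptors *TNFRSF10A* and *TNFRSF10B* was 28.5 RPKM and that of the decoys 39.9, a ratio of 0.714 (0.677 to 0.753). The ratio was below 1 over canonical transcripts too, at 0.828 (0.785 to 0.874). The decoy proteins are shorter, with 386 residues for DcR2 and 259 for DcR1, and are identical at 66.0% of 200 aligned positions.

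The 4 TRAIL receptor genes lie within 205 kb, and neighbors in this cluster differed in level. *TNFRSF10C*, the least abundant, sits between *TNFRSF10B* and *TNFRSF10D*, 18.1 kb from the latter, which is the most abundant. A second cluster holds *CFLAR* (ENSG00000003402, 201116154 to 201176687), *CASP10* (ENSG00000003400, 201182872 to 201229428) and *CASP8* (ENSG00000064012, 201233443 to 201361836) in this order on the plus strand of chromosome 2, over 245.7 kb. Only 6.18 kb separate *CFLAR* from *CASP10* and 4.01 kb separate *CASP10* from *CASP8*. The least abundant of all 10 mRNAs thus comes from the gene in the middle.

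**Figure D3:**
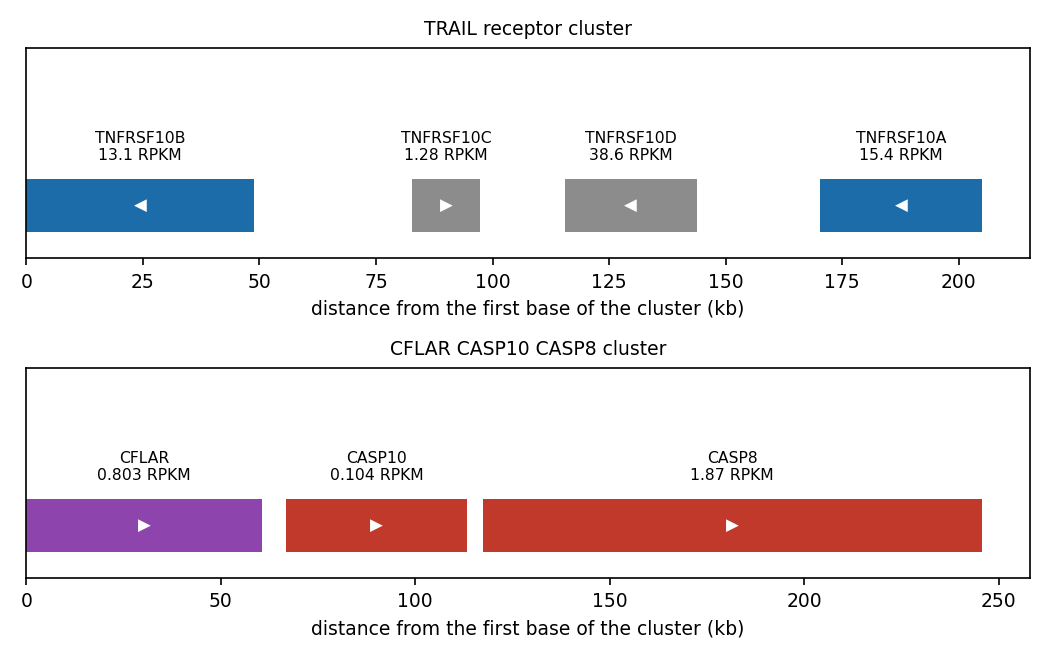
Maps of the TRAIL receptor cluster (top) and of the *CFLAR*, *CASP10* and *CASP8* cluster (bottom), drawn to scale as distance in kb from the first base of each cluster. Boxes are genes colored by role, arrows give the strand and labels the level in RPKM over merged exons. The 38.6 RPKM of *TNFRSF10D* stand next to the 1.28 of *TNFRSF10C*, and the 0.104 of *CASP10* lies between 0.803 and 1.87.

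*FAS* and *TNFRSF1A*, the receptors for FAS ligand and TNF, differed widely in counts as well as in level. *TNFRSF1A* (ENSG00000067182, chromosome 12, 6328757 to 6342114, minus strand) had 1068 counts (1005 to 1134) and a level of 11.2 RPKM (21.7 over the canonical transcript), above 85.0% of protein-coding genes. *FAS* (ENSG00000026103, chromosome 10, 88953813 to 89029605, plus strand) had 179 counts (154 to 207). No other gene of the 10 was as sensitive to the length: its 61 annotated transcripts merge to 29313 bases of exon, whereas the canonical one has 3696 bases in 9 exons. Its level was accordingly 0.269 RPKM over merged exons (0.231 to 0.311), above 43.3% of protein-coding genes, and 2.13 over the canonical transcript (1.83 to 2.47), above 58.7%. On either scale *FAS* was the lowest of the 4 receptors with a death domain. *TNFRSF10B* exceeded it 48.8-fold over merged exons (41.8 to 57.3) and 7.72-fold over canonical transcripts (6.60 to 9.06). Between *TNFRSF10B* and *TNFRSF1A* the order turned with the length, since the ratio was 1.17 over merged exons (1.08 to 1.27) and 0.760 over canonical transcripts (0.702 to 0.822).

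*FADD*, the adaptor shared by these receptors, is a compact gene of 2 exons and 1708 bases on chromosome 11 (ENSG00000168040, 70203296 to 70207390, plus strand). With 1 annotated transcript, its length does not depend on how exons are merged. It had 524 counts (480 to 571) and 13.5 RPKM (12.4 to 14.7), above 86.9% of protein-coding genes. Over merged exons its level did not differ from that of *TNFRSF10B* beyond counting error, and on both length scales it was above that of each gene whose product it recruits.

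Downstream of *FADD*, *CASP8* was the main initiator caspase at the mRNA level. It had 308 counts (275 to 344) and 1.87 RPKM (5.10 over the canonical transcript), above 62.3% of protein-coding genes. *CASP10* had 21 counts (13.0 to 32.1), so that *CASP8* was 18.1-fold higher over merged exons (11.6 to 29.6) and 31.3-fold over canonical transcripts (20.1 to 51.2). The 21 counts of *CASP10* lie above 3 counts, the one-sided 95% upper limit that a count of 0 would allow. The level of the gene was 0.104 RPKM (0.0641 to 0.158). That limit sets no level for stray reads, so whether all these counts are *CASP10* mRNA was not tested. *FADD* exceeded *CASP8* 7.21-fold over merged exons (6.25 to 8.33) and 2.65-fold over canonical transcripts (2.30 to 3.06).

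*CFLAR* had more counts than *CASP8*, 410 against 308, yet a lower level once length was considered. Its canonical transcript has 14612 bases, of which 1440 are coding, and its merged exons 22478. The *CFLAR* level was 0.429 of the *CASP8* level over merged exons (0.369 to 0.498) and 0.242 over canonical transcripts (0.208 to 0.282). In counts the ratio was 1.33 (1.15 to 1.55), so that the direction of this comparison rests on the division by length. The same gene was 16.8-fold below *FADD* over merged exons (14.8 to 19.2) and 10.9-fold below it over canonical transcripts. The counts do not separate the long and short splice forms of FLIP, and levels of mRNA are not levels of protein.

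**Figure D4:**
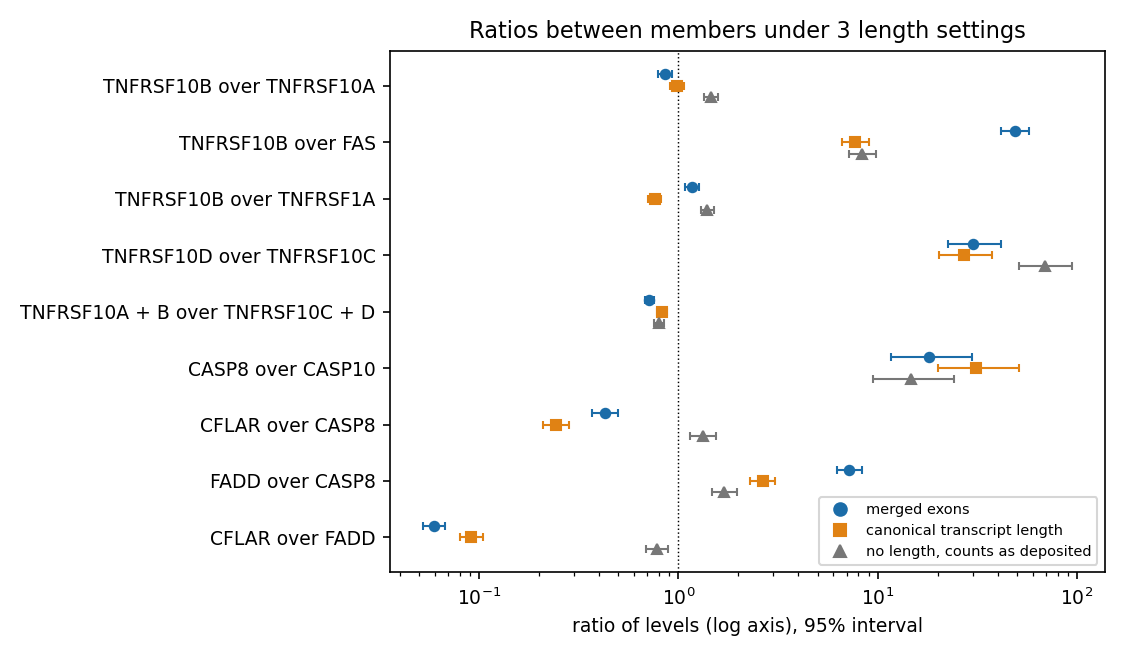
Ratios of levels for the 9 pairs compared, on a log axis with 95% intervals, using merged exons (circles), canonical transcripts (squares) or no length (triangles). *TNFRSF10D* over *TNFRSF10C* and *CASP8* over *CASP10* lie far above 1 in each setting, whereas *CFLAR* over *CASP8* moves from 0.429 to 1.33 when length is left out.

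The ligand genes of these receptors had few or no counts. *TNFSF10* (TRAIL) and *FASLG* had 0 counts, which at this depth allows a level of up to 0.0384 and 0.0732 RPKM, respectively, by the one-sided limit of 3 counts. *TNF* had 1 count. *LTA*, which encodes lymphotoxin alpha, another ligand of TNFR1, had 0.355 RPKM and 14 counts (7.65 to 23.5), above that limit of 3 counts. The limit sets no level for stray reads, so whether these counts are *LTA* mRNA was not tested. The list of 6 ligand genes also held *LTB* and *TNFSF15*, whose main receptors are other members of the superfamily, each with 0 counts. None of the 6 reached an RPKM of 1, against 44.6% of protein-coding genes over merged exons. Of the 6, 4 had 0 counts, as did 4779 of the 19629 protein-coding genes.

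Within the 29 genes of the TNF receptor superfamily that were examined, *TNFRSF10D* ranked second, *TNFRSF10A* 4, *TNFRSF10B* 6, *TNFRSF1A* 8, *TNFRSF10C* 11 and *FAS* 15 by RPKM over merged exons. Over canonical transcripts *TNFRSF10D* kept its rank, whereas *TNFRSF1A* ranked 5, *TNFRSF10A* 6, *TNFRSF10B* 7, *FAS* 11 and *TNFRSF10C* 14, so that *FAS* and *TNFRSF10C* changed places. Above all of them was *TNFRSF12A*, the receptor for TWEAK, which has no death domain, with 97.7 RPKM. Of the 23 receptor genes outside the 6 described above, 7 reached an RPKM of 1 over merged exons, against 44.6% of protein-coding genes. The interval of *TNFRSF25*, 1 of these 7, includes 1 (0.933 to 1.37). Over canonical transcripts 9 of the 23 reached it, against 49.1%. Of the 23 genes, 6 had 0 counts, as did 4779 of the 19629 protein-coding genes. The median of the 23 was 0.0867 RPKM. Of the membrane receptors with a death domain in this list, *TNFRSF21* (DR6) had 14.1 RPKM, *TNFRSF25* (DR3) 1.14, *NGFR* 0.978 and *EDAR* 0 counts, so that over merged exons *TNFRSF21* alone of these came near the levels of *TNFRSF10A* and *TNFRSF10B*. Osteoprotegerin, encoded by *TNFRSF11B*, is a soluble receptor that can bind TRAIL, and had 0 counts, which allows up to 0.0526 RPKM. *TNFRSF6B*, which encodes DcR3, a soluble decoy for FAS ligand, was also listed at 0 counts, but 100% of its exon bases are shared with the read-through gene *RTEL1-TNFRSF6B* on the same strand, which had 73 counts. Reads of *TNFRSF6B* could thus not be told apart from those of that gene, and its level is not known from these counts.

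Of 15 genes for proteins that act in or on the receptor complexes, 8 reached an RPKM of 1 over merged exons. The share of all protein-coding genes at that level was 44.6%. Over canonical transcripts 9 of the 15 reached it, against 49.1%. The median of the 15 genes was 2.67 RPKM over merged exons. *TRADD*, the adaptor of TNFR1, had 2.67 RPKM, and *TRAF2*, a ubiquitin ligase adaptor of the same complex, 5.73. *RIPK1*, the kinase that joins both the survival and the death complexes, had 0.774 RPKM over merged exons and 2.30 over the canonical transcript. The 3 subunits of the linear ubiquitin chain assembly complex, *RNF31*, *RBCK1* and *SHARPIN*, had 4.61, 5.02 and 9.01 RPKM. The value of *RNF31* is uncertain, since 53.3% of its exon bases are shared with other genes on its strand. The deubiquitinases *CYLD* and *TNFAIP3* were low, with 0.265 and 0.287 RPKM. So was *BIRC3*, which encodes the ubiquitin ligase cIAP2, with 0.306 RPKM, or 0.333 over its canonical transcript. Its relative *BIRC2*, which encodes cIAP1, was higher, with 3.38 RPKM, or 4.06 over its canonical transcript. The highest of the 15 genes over merged exons was *DAXX* with 20.5 RPKM, and the lowest was *FAIM2* with 0 counts.

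Among the 7 genes for death effector domain proteins, *FADD* ranked 3, *CASP8* 5, *CFLAR* 6 and *CASP10* 7 on both length scales. The highest was *PEA15*, whose product can bind FADD and caspase 8 and restrain them, with 29.9 RPKM (34.2 over the canonical transcript). *DEDD2* had 13.6 RPKM and *DEDD* 5.02. Among 11 caspase genes, *CASP8* ranked 5 and *CASP10* 8 over merged exons, and 4 and 8 over canonical transcripts.

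All 8 genes that were examined downstream of the initiator caspases had more than 3 counts. Over merged exons 7 of them reached an RPKM of 1, against 44.6% of protein-coding genes. Over canonical transcripts all 8 did, against 49.1%. *BID*, the substrate through which caspase 8 engages the mitochondrial pathway, had 13.6 RPKM over merged exons, close to *FADD*, but 27.6 over its canonical transcript, against 13.5 for *FADD*. *CASP6*, another caspase that acts after the initiators, had 6.41 RPKM, and *XIAP*, which inhibits caspases, 3.06. *DFFA*, which encodes the inhibitor and chaperone of the caspase-activated DNase, had 15.9 RPKM over merged exons, above *BID*, and 17.4 over its canonical transcript, below *BID*.

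**Figure D5:**
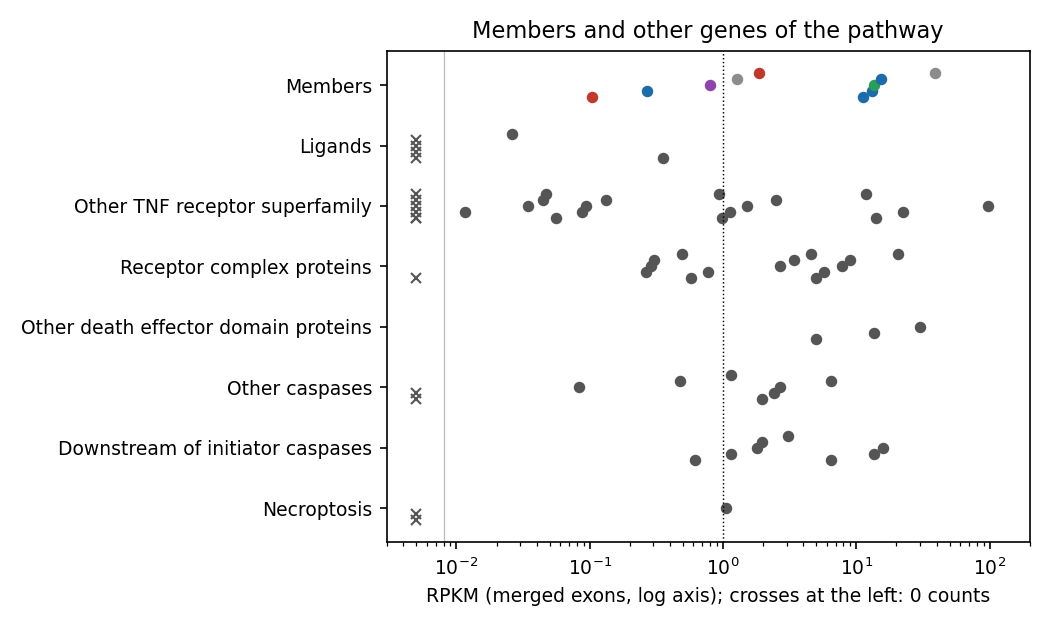
RPKM over merged exons (log axis) of the 10 genes, colored by role as in the plot of their levels, and of the other genes of the pathway in gray, 1 row per list, with a dotted line at an RPKM of 1. Crosses at the left are genes with 0 counts and have no position on the axis. The ligands lie at or below 0.355 RPKM, whereas 7 of the 8 genes downstream of the initiator caspases lie above 1.

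Reads of similar or overlapping genes can add to these counts or be missing from them. In the canonical exons of the 10 genes, between 0% (*FAS*, *TNFRSF1A* and *FADD*) and 4.98% (*TNFRSF10C*) of all windows of 75 bases, the read length, occurred again elsewhere in hg38. The share was 3.51% in *CFLAR*, and none of the repeated windows fell in the exons of another of the 10 genes. On the same strand, 2 of the 10 genes share exon bases with another gene of the table: *FAS* with *STAMBPL1* (166 bases, 57 counts) and *CFLAR* with ENSG00000234431 (445 bases, 0 counts). In the later annotation used for lengths, *TNFRSF10C* and *CASP8* also share exon bases with genes that were not counted separately. Genes on the opposite strand, such as *ACTA2* at *FAS* with 609 counts and *TNFRSF10A-DT* at *TNFRSF10A* with 131, were counted apart because the libraries were strand-specific. How many reads of a member were assigned to an overlapping gene was not tested.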

How the data were processed

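The authors sequenced polyA-selected, strand-specific libraries in single-end reads of 75 nt, mapped the reads to hg38 and human rRNA with ContextMap and BWA, and counted them per gene and strand with featureCounts and GENCODE version 25. The deposited table holds raw counts, whole numbers without normalization, in 12 columns, each of which was assigned to the sample with the same name. Because all columns were identical they were counted as 1 sample, and the column of the first DMSO sample was read. The depth of 22720718 counts puts 3 counts, the one-sided 95% limit that a count of 0 allows, at 0.132 CPM. No edgeR test between treatments, as the study used, was possible.

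Identifiers were matched without suffix to GENCODE version 44 (56948 matched, with 99.8% of counts), which gave symbols, positions and lengths. These lengths are not those of version 25, and merged exons include retained introns. CPM and RPKM use the total of the column. Intervals of counts are exact Poisson, those of ratios exact Clopper-Pearson, and that of the summed TRAIL receptors is a normal approximation on the log scale. PCR duplicates cannot be told apart from independent molecules. Python 3.11.15, scipy 1.17.1 and Biopython 1.88 were used, and the functions were tested on simulated data. All 10 members, and other genes from lists of ligands, receptors, complex proteins, caspases and markers, were named. The members and lists were chosen with earlier results of these data known.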

Additional observations from a re-analysis of the deposited data

How the results depend on the processing

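No paired analysis was possible because the treatments could not be told apart in the table, whose 12 columns do not differ. For the same reason leaving out a replicate and other normalizations between samples were not run. The gene length was the setting that mattered most. Over canonical transcripts the levels that left their counting interval were *TNFRSF10A* (16.7 RPKM), *TNFRSF10B* (16.4), *FAS* (2.13), *TNFRSF1A* (21.7), *CASP8* (5.10), *CASP10* (0.163) and *CFLAR* (1.23). Over the merged exons of the GENCODE basic set, an alternative chosen after the data were seen, they were *TNFRSF10A* (16.7), *TNFRSF10B* (16.4), *FAS* (0.449), *TNFRSF1A* (19.6) and *CASP8* (3.47). Leaving the mitochondrial genes, 10.4% of the counts, out of the total raised all levels by the same factor and took *TNFRSF10A* (17.1), *TNFRSF10B* (14.7), *TNFRSF1A* (12.5), *TNFRSF10D* (43.1), *FADD* (15.1) and *CFLAR* (0.896) out of their intervals. These are the genes with the most counts, whose intervals are the narrowest relative to their levels, so the list reflects depth alone. Of the ratios, *TNFRSF10B* over *TNFRSF1A* turned to 0.760 over canonical transcripts, and with no length *TNFRSF10B* over *TNFRSF10A* turned to 1.46 and *CFLAR* over *CASP8* to 1.33. Over canonical transcripts *TNFRSF10B* over *TNFRSF10A* was 0.985, with an interval that holds 1, and so had no direction beyond counting error. The other ratios kept their direction. Over canonical transcripts those that moved were 7.72 for *TNFRSF10B* over *FAS*, 0.828 for the TRAIL signaling receptors over the decoys, 31.3 for *CASP8* over *CASP10*, 0.242 for *CFLAR* over *CASP8*, 2.65 for *FADD* over *CASP8* and 0.0915 for *CFLAR* over *FADD*. With no length those that moved were 8.35 for *TNFRSF10B* over *FAS*, 1.40 for *TNFRSF10B* over *TNFRSF1A*, 68.9 for *TNFRSF10D* over *TNFRSF10C*, 0.799 for the signaling receptors over the decoys, 1.70 for *FADD* over *CASP8* and 0.782 for *CFLAR* over *FADD*. The number of genes with an RPKM of at least 1 stayed between 7 and 9. Among protein-coding genes with at least 1 count the share at that level was 58.9%. The depth limits *CASP10* and *TNFRSF10C* most, whose intervals are the widest relative to their values.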

Other observations

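Genes of neighboring death pathways were uneven in the same profile. Of the necroptosis genes, *RIPK3* and *ZBP1* had 0 counts, which by the one-sided limit of 3 counts allows up to 0.0409 and 0.0244 RPKM, whereas *MLKL*, the executor of necroptosis downstream of RIPK3, had 136 counts and 1.05 RPKM. Of the inflammatory caspases, *CASP1* had 0 counts and *CASP5* 3, against 363 counts and 2.40 RPKM of *CASP4* (12.3 over its canonical transcript). *CASP9*, the initiator caspase of the intrinsic pathway, had 57 counts and 0.476 RPKM, below the 1.87 RPKM of *CASP8* on the same scale.

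The label of the cells was compared with marker genes. Of 6 epithelial markers, 5 reached an RPKM of 1, led by *KRT8* with 514 RPKM and *EPCAM* with 182, and *CDX2* had 0.813. Of 7 markers of other cell types none reached it over merged exons, with *PTPRC* at 0 counts and *COL1A1* the highest at 0.972 RPKM. Over canonical transcripts *COL1A1*, with 199 counts, was the 1 marker of these 7 that reached it, at 1.48 RPKM.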
